A study of Mus musculus with 26 samples.

Results

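Zfp707 and Zfp869 are zinc finger genes whose transcripts were among those that the study used to tell apart chromatin stages of fully grown oocytes. They were represented by 1 transcript each (TCONS_00037306 for Zfp707 and TCONS_00100472 for Zfp869), 2 of the 38540 transcripts in the count table. They were chosen by name from the study's list of transcripts that separate the stages in these same oocytes. The difference between the stages is therefore how they came to be chosen, and it is given here as a description without a test. Tests were made for what the choice did not use directly, which was the mouse of origin and whether the stage difference varied between mice. The study kept genes that an earlier bulk RNA comparison of the stages had also reported as different. It then ordered its list by adjusted p over oocytes of both mice, which favours transcripts with little spread. These tests are therefore not fully apart from the choice.

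RNA was sequenced from single fully grown germinal vesicle (GV) oocytes of wildtype C57Bl6/Babr mice aged 12 weeks. Stage was scored from Hoechst-stained chromatin, with no ring of staining around the nucleolus in non-surrounded nucleolus (NSN) oocytes, a partial ring in intermediate oocytes and a full ring in surrounded nucleolus (SN) oocytes. The 26 oocytes came from 2 mice, named C and D, and comprised 9 NSN oocytes (5 of mouse C and 4 of mouse D), 16 SN oocytes (9 of mouse C and 7 of mouse D) and 1 intermediate oocyte of mouse D. All carried the same genotype and received no treatment that the labels name, and oocytes of a mouse share that animal. Polyadenylated RNA of each oocyte was captured on oligo-dT beads and amplified without molecular identifiers, so values are shares of captured RNA, and counting intervals cover counting error only.

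Most mouse zinc finger genes of this kind encode KRAB zinc finger proteins. Their C2H2 fingers, each a short loop held by a zinc ion between a pair of cysteines and a pair of histidines, bind DNA. Their KRAB box recruits the corepressor TRIM28 (KAP1), which brings in enzymes that silence chromatin and is best known for holding transposable elements and some imprinted regions silent. GV oocytes transcribe actively in the NSN configuration and are largely silent in the SN configuration, so transcripts of SN oocytes were made earlier and stored.

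Zfp707 lies on the forward strand of chromosome 15 at chr15:75969123-75975868 and Zfp869 on the reverse strand of chromosome 8 at chr8:69706332-69710724 (GRCm38, GENCODE M21). The Zfp707 locus has 7 annotated transcripts, of which 5 are protein-coding, and Zfp869 has 1. No other annotated gene overlaps either locus. The annotated transcript of each gene used for the sequences has 4 exons, with the KRAB A box in exon 2 and every finger in exon 4. The stretch of the KRAB A box is shown because it is what both genes share, with capitals at the bases that differ between them.
Zfp707 KRAB A box, chr15:75973088-75973195, forward strand: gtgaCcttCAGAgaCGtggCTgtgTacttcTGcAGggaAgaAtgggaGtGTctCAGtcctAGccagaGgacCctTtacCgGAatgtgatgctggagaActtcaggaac
Zfp869 KRAB A box, chr8:69708352-69708459, reverse strand: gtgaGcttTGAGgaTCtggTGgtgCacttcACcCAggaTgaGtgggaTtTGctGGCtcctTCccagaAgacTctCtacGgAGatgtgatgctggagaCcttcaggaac
Of 108 bases, 77 (71.3%) were identical, as were 21 of the 36 encoded residues. The box was located with a pattern that requires a given residue at 21 of the 36 positions. The residue identity, and part of the base identity, therefore followed from the search and is no measure of likeness.

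The DNA-binding ends of the proteins differed in size. A search of the coding sequences for fingers with the spacing of the C2H2 type (a cysteine, 2 residues, a cysteine, 12 residues, a histidine, 3 or 4 residues, a histidine) found 7 fingers in the 384 codons of Zfp707 and 12 in the 529 codons of Zfp869. The fingers made up 38.3% of the Zfp707 coding sequence and 47.6% of that of Zfp869. The residues TGEKP, the linker that commonly joins neighbouring fingers, occurred 1 time in the encoded Zfp707 protein and 9 times in that of Zfp869. Only this exact form was counted, wherever it lay. The first finger of each is shown with capitals at the codons of the zinc-binding cysteines and histidines.
Zfp707 first finger, chr15:75974691-75974753, forward strand: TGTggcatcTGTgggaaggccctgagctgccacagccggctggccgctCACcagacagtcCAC
Zfp869 first finger, chr8:69707316-69707378, reverse strand: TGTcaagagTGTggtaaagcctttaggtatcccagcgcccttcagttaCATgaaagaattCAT
The map of the transcripts places these elements to scale.

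**Figure D1:**
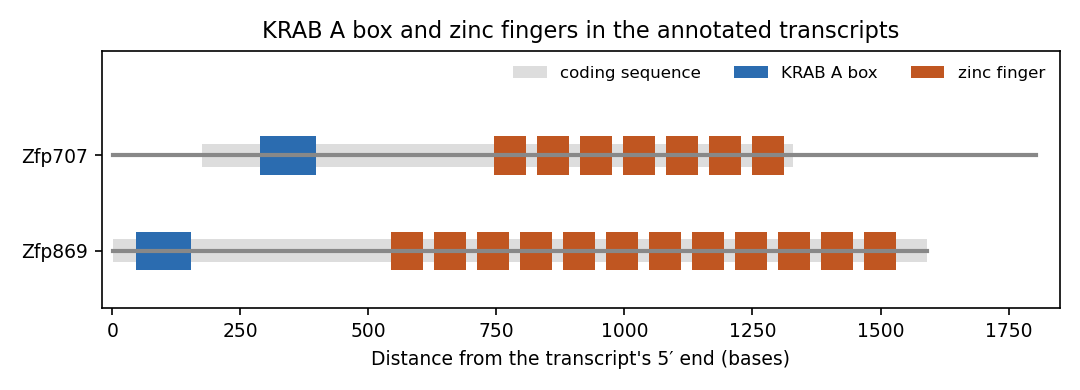
Annotated transcripts of Zfp707 (1803 bases) and Zfp869 (1590 bases) drawn to scale in bases from the 5′ end, with the coding part, the KRAB A box and each C2H2 finger marked. Both carry 1 KRAB A box upstream of the fingers, with 7 fingers in Zfp707 and 12 in Zfp869.

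The Zfp707 transcript has an annotated 3′ end, and a stretch of it is shown because oligo-dT capture starts from the tail added there, with capitals at the polyadenylation signal.
Zfp707 polyadenylation signal, chr15:75975717-75975746, forward strand: cacacaagacatAATAAAtacataactcaa
The signal AATAAA began 21 bases from the transcript end, and it occurred in the last 150 bases of 65.9% of the 18877 genes searched. Other motifs were searched in the same window on the sense strand only. The form TTTTAT of the cytoplasmic polyadenylation element was not there in Zfp707 and was found in 18.4% of genes. Its longer form TTTTAAT was not there either and was found in 6.67% of genes. The same held for TATTTA, a part of AU-rich elements, which 2652 genes carried. The annotated Zfp869 transcript ends at its stop codon, so its 3′ end was not searched.

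The sequences also bear on which reads could be told apart. Of 1541 windows of 50 bases in the Zfp869 transcript, 144 (9.34%) also occurred in an annotated transcript of another gene, in each case Zfp868, which lies close by. At 100 bases the share was 1.95% (29 of 1491 windows). No window of Zfp707 was shared with another gene at 50 bases (0 of 1754). A small part of the Zfp869 counts could therefore be shared with Zfp868, and the Zfp869 values carry that uncertainty. The exons of the 2 counted transcript models were not used here, so the annotated transcripts stand in for them.

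Each NSN library held between 1886716 and 2983344 counts (median 2690652), each SN library between 1358383 and 3647827 (median 2069699), and the intermediate library 2163635. Levels are given in CPM, the count scaled to a common library total. A count of 0 allows up to 3 counts, which is at most 2.21 CPM in the smallest library. The filter on low counts required 3 counts or more in 9 oocytes or more. Both genes passed it, among 16657 transcripts, and each had counts in all 26 oocytes.

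Zfp707 fell to low levels in SN oocytes. In the NSN oocytes of mouse C its level was 13.7, 18.5, 25.9, 30.9 and 37.7 CPM, and in those of mouse D it was 20.1, 30.7, 32.2 and 47.9 CPM. In SN oocytes it ranged from 0.864 to 4.75 CPM in mouse C (median 2.84) and from 0.931 to 6.40 CPM in mouse D (median 3.01). The stages did not overlap, and the lowest NSN oocyte was 2.15 times as high as the highest SN oocyte. The mean over the NSN oocytes was 28.6 ± 10.5 CPM (SD, n = 9), and that over the SN oocytes was 3.04 ± 1.51 CPM (SD, n = 16).

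The Zfp707 values rested on 38 to 129 counts per NSN oocyte (median 78) but on 2 to 17 counts per SN oocyte (median 6). In 4 of the 16 SN oocytes the count was at most 3, so their order among themselves cannot be read. The edgeR fit over all transcripts gave a log2 fold change of -3.15 (SE 0.229), or 8.85-fold lower in SN. This SE treats oocytes of the same mouse as separate and takes no account of how the gene was chosen. Only 27 of the 16657 transcripts fell by more on that scale.

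Zfp869 was also lower in SN oocytes, by less, and a considerable level remained. In the NSN oocytes of mouse C its level was 18.8, 29.8, 34.4, 39.6 and 42.5 CPM, and in those of mouse D it was 18.5, 22.3, 40.8 and 42.6 CPM. In SN oocytes it ranged from 4.41 to 15.1 CPM in mouse C (median 13.4) and from 3.72 to 19.1 CPM in mouse D (median 7.46). The stages overlapped through 1 oocyte, the SN oocyte D-27 at 19.1 CPM, which lay above the NSN oocytes D-14 and C-8. The NSN oocytes averaged 32.1 ± 10.1 CPM (SD, n = 9), and the SN oocytes 9.64 ± 4.98 CPM (SD, n = 16).

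Counts of Zfp869 were 47 to 118 per NSN oocyte (median 77) and 6 to 54 per SN oocyte (median 18), so each SN value stood above the limit of 3 counts. The fitted log2 fold change was -1.67 (SE 0.226, with the same limits as for Zfp707), or 3.19-fold lower in SN, and 280 transcripts fell by more. Of all pairs of an SN and an NSN oocyte, 98.6% had the lower Zfp869 level in the SN oocyte. The plot of CPM by oocyte shows the clean gap of Zfp707 and the overlap of Zfp869.

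**Figure D2:**
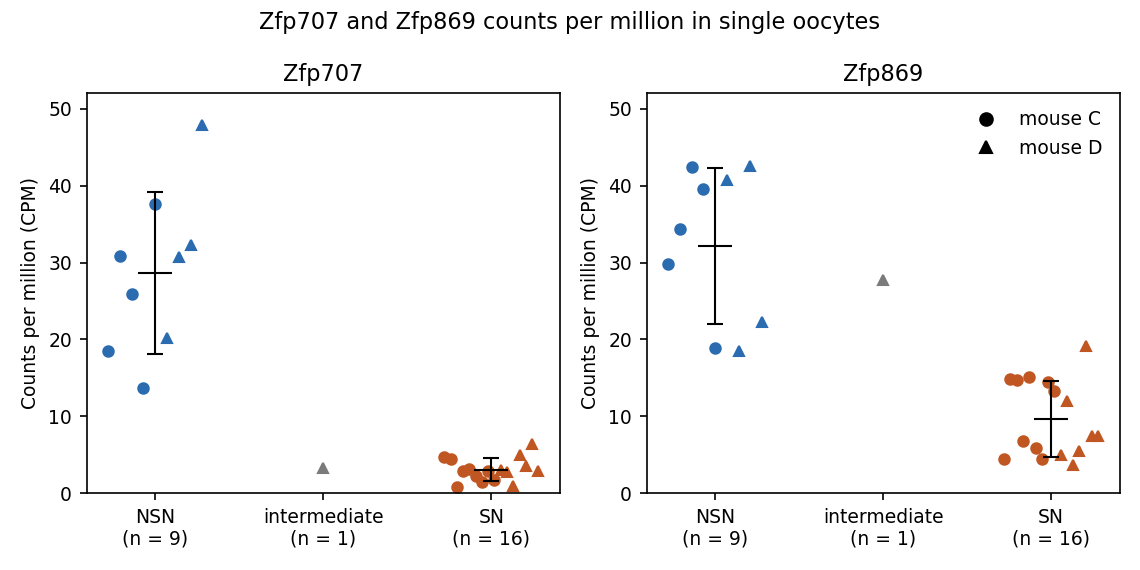
Level of Zfp707 and of Zfp869 in each oocyte, in CPM on a linear axis, by stage and with a marker for each mouse, where each point is 1 oocyte and lines give the stage mean and SD. For Zfp707 the whole SN group of 16 sits under the NSN group, for Zfp869 15 of 16 SN oocytes do, while the intermediate oocyte sat with SN for Zfp707 (3.24 CPM) and with NSN for Zfp869 (27.7 CPM).

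Among all transcripts tested, 1345 (8.07%) were called lower in SN by edgeR's quasi-likelihood test at an adjusted p of 0.05, and both genes were among them, as the way they were chosen implies. A further 899 (5.4%) were called higher. For 66 transcripts (0.396%) the SN values all lay under the NSN values without overlap, and for 3 (0.018%) they all lay above. Zfp707 was in the former set and Zfp869 was outside it by the 1 oocyte D-27. Nothing is read from either count for the choice of these genes.

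At equal depth the stages kept their order. With every library downsampled to 1358383 counts, Zfp707 held 20 to 76 counts per NSN oocyte and 0 to 7 per SN oocyte, with the 0 in the SN oocyte D-13 allowing up to 2.21 CPM. Zfp869 held 21 to 58 counts in NSN and 2 to 31 in SN oocytes at that depth. At that depth Zfp707 had no overlap between the stages, and Zfp869 had some. How many of all transcripts had no overlap at equal depth was not counted, so nothing is read from this for Zfp707.

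Each gene was lower in SN oocytes in each mouse taken alone. The oocytes are those on which the genes were chosen, so this describes the same difference and does not repeat it. How many of all transcripts separate the stages within a mouse was not counted. In mouse C Zfp707 was lower in SN by a log2 fold change of -3.08 (SE 0.298), and in mouse D by -3.23 (SE 0.327). No SN oocyte reached the lowest NSN oocyte of its own mouse, in 9 of 9 cases for mouse C and 7 of 7 for mouse D. For Zfp869 the log2 fold change was -1.60 (SE 0.271) in mouse C, where 9 of 9 SN oocytes were under the whole NSN range. In mouse D it was -1.81 (SE 0.338), with 6 of 7 under it.

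Whether the mice differed was tested with stage in the model, since the choice of the genes did not use the mouse directly. Zfp707 averaged 25.3 ± 9.55 CPM (SD, n = 5) in NSN oocytes of mouse C and 32.8 ± 11.5 CPM (SD, n = 4) in those of mouse D. Its difference, mouse D minus mouse C, was 0.30 on the log2 scale (SE 0.236, 95% interval -0.18 to 0.78), with an edgeR adjusted p of 0.707. For Zfp869 the NSN means were 33.0 ± 9.29 CPM (SD, n = 5) in mouse C and 31.1 ± 12.4 CPM (SD, n = 4) in mouse D. Its difference was -0.23 (SE 0.231, 95% interval -0.70 to 0.24), with an edgeR adjusted p of 0.785.

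Neither difference between the mice was larger than the spread of the oocytes, and both intervals lay closer to 0 than the stage differences did. Among all transcripts, 6 (0.036%) were called between the mice, 3 (0.018%) higher in mouse D and 3 (0.018%) lower. With 1 animal on each side, the test compares these animals and no wider population.

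The stage difference itself also did not differ detectably between the mice. The interaction of stage and mouse was -0.17 for Zfp707 (SE 0.492, 95% interval -1.17 to 0.83, edgeR adjusted p 0.979). It was -0.22 for Zfp869 (SE 0.467, 95% interval -1.17 to 0.73, edgeR adjusted p 0.975). The intervals reach past 1 log2 unit, so a moderate difference between the mice was not detectable with these numbers of oocytes. edgeR called 0 transcripts (0%) for the interaction, with 994 (5.97%) at an unadjusted p under 0.05, and DESeq2 also called 0.

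**Figure D3:**
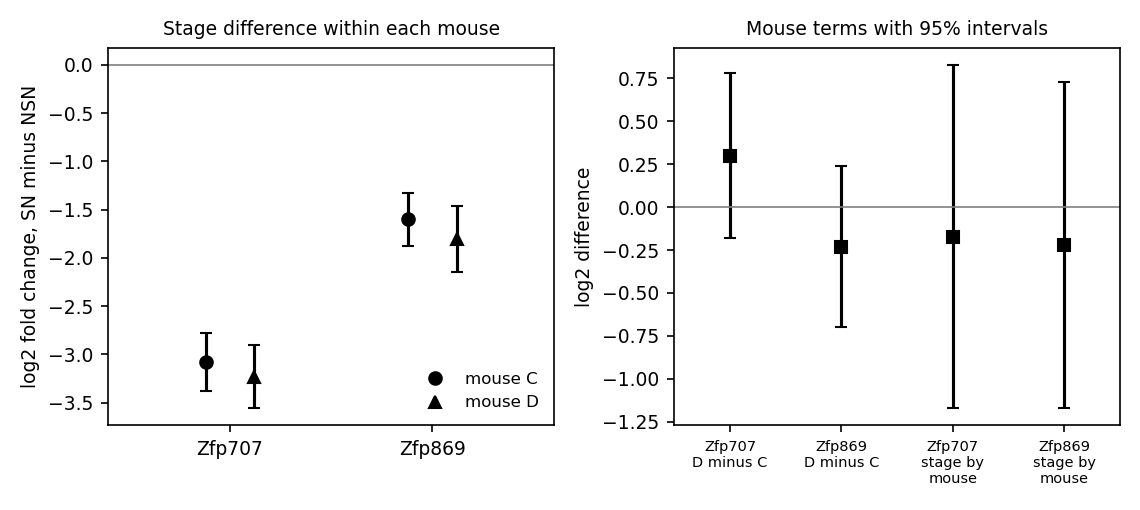
Fitted log2 differences of Zfp707 and Zfp869, on the left for SN minus NSN in each mouse with bars of 1 SE, and on the right for mouse D minus mouse C and for the interaction of stage and mouse with 95% intervals. The stage differences sit well below 0 in both mice, near -3 for Zfp707 and between -1.60 and -1.81 for Zfp869, and the intervals of the mouse and interaction terms all include 0.

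The intermediate oocyte, D-15, separated the genes. It held 7 counts of Zfp707, or 3.24 CPM (exact Poisson 95% interval 1.30 to 6.67), below all 9 NSN oocytes and above 11 of the 16 SN oocytes. It held 60 counts of Zfp869, or 27.7 CPM (exact Poisson 95% interval 21.2 to 35.7), above all 16 SN oocytes and above 3 of the 9 NSN oocytes. On the log2 scale, the Zfp707 value lay 6.79% and the Zfp869 value 95.5% of the way from the SN mean to the NSN mean. Among the 630 transcripts called lower by more than 1 log2 unit, the middle range (quartiles) of this position ran from -12.6% to 70.5%, with a median of 30.8%, so Zfp707 lay inside it and Zfp869 above it. This is 1 oocyte, so there was no test.

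Within a stage, the levels of the genes showed little relation. After removal of the stage means, Pearson's r of their log2 CPM was -0.10 over 25 oocytes (Spearman's rho -0.06), and -0.18 without the 2 oocytes farthest from the median of Zfp707. It was -0.55 in the 9 NSN oocytes (rho -0.32) and 0.05 in the 16 SN oocytes (rho 0.11). These are descriptions over values from the same libraries, which share their depth and scaling, and the negative value in NSN rests on few oocytes.

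The count ratio of Zfp707 to Zfp869 spanned 0.348 to 2.15 over the NSN oocytes (median 0.757), against 0.0588 to 1.06 over the SN oocytes (median 0.315). It is a ratio of counts, not of molecules, since it takes no account of transcript length. Its groups overlapped, with 9 of the 16 SN oocytes under the lowest NSN value. The 3 NSN oocytes above every SN oocyte, C-8 at 2.00, D-14 at 1.66 and D-34 at 2.15, were those with the lowest Zfp869 levels. The intermediate oocyte had a ratio of 0.117, below every NSN oocyte.

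**Figure D4:**
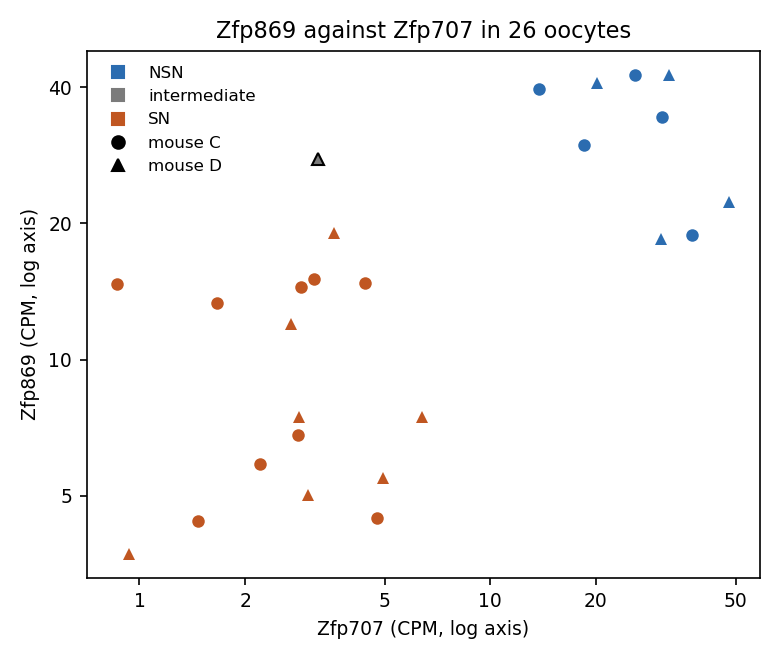
Level of Zfp869 against Zfp707 in each of the 26 oocytes, in CPM on log axes, with stage by colour and mouse by marker. NSN and SN oocytes form separate clouds along the Zfp707 axis, and the intermediate oocyte lies at 3.24 CPM of Zfp707 and 27.7 CPM of Zfp869.

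The spread between oocytes is given beside what counting alone would leave. The coefficient of variation of Zfp707 was 36.6% in NSN, where counting alone would give 11.6%, and 49.8% in SN, where counting alone would give 40.1%. For Zfp869 it was 31.4% in NSN against 10.96% from counting, and 51.7% in SN against 22.5%. In NSN both genes varied beyond counting by similar amounts, and in SN the counts of Zfp707 were too low for a comparison of the genes.

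The Zfp869 values in SN oocytes were unevenly spaced at full depth. Of the 16 SN oocytes, 9 had at most 7.47 CPM and 7 had at least 12.0 CPM, with none between. Both mice were on both sides. The space did not stay empty at equal depth, where D-28, from the lower side, held 13 counts and C-9, from the upper side, held 14. The NSN oocytes had their widest gap between 22.3 and 29.8 CPM, with 3 oocytes below it and 6 above. No outlying oocyte was found for either gene in the groups small enough for Dixon's test.

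Zfp869 and Zfp707 were set beside the depth of each library. With total counts, Pearson's r of log2 CPM was 0.26 for Zfp707 in NSN and 0.22 in SN, and -0.22 for Zfp869 in NSN and 0.23 in SN. With the number of detected transcripts it was 0.27 and 0.24 for Zfp707, and -0.20 and 0.33 for Zfp869. Without the 2 oocytes farthest from the median depth, the NSN values were 0.59 with total counts and -0.14 with detected transcripts for Zfp707. For Zfp869 they were -0.17 and 0.46. The SN values were then -0.05 and 0.015 for Zfp707, and 0.30 and 0.10 for Zfp869. No relation with depth can be read from so few oocytes.

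The transcripts with the pattern most like each gene were ranked over all 26 oocytes by Pearson's r of log2 CPM, among 12032 others with a mean of at least 10 counts. This likeness includes the difference between the stages, on which the genes were chosen. For Zfp707 the closest were TCONS_00106131 (r = 0.917), Vav3 (r = 0.906), TCONS_00020063 (r = 0.905), TCONS_00101953 (r = 0.897) and TCONS_00039771 (r = 0.891). Zfp869 stood at rank 331 of that list (r = 0.684).

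For Zfp869 the closest were TCONS_00079373 (r = 0.790), Coil (r = 0.789), TCONS_00050770 (r = 0.777), B4galt3 (r = 0.772) and TCONS_00065984 (r = 0.771). Coil encodes coilin, the scaffold of Cajal bodies, and averaged 17.3 CPM in NSN and 7.19 CPM in SN oocytes. B4galt3, a galactosyltransferase of the Golgi, averaged 29.1 and 8.87 CPM. Zfp707 stood at rank 50. The likeness to their nearest transcripts was lower for Zfp869 than for Zfp707.

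Once the stage means were removed, likeness rested on the 25 NSN and SN oocytes alone. The closest were then TCONS_00109783 (r = 0.738), TCONS_00071737 (r = 0.699) and TCONS_00003650 (r = 0.690) for Zfp707. For Zfp869 they were TCONS_00095840 (r = 0.686), TCONS_00016383 (r = 0.672) and TCONS_00109880 (r = 0.645). These had no gene name among the names used here. Zfp869 then stood at rank 7892 for Zfp707, and Zfp707 at rank 8571 for Zfp869.

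Other zinc finger genes could be followed only where a transcript had a name, which was 511 of the 38540 transcripts. Besides Zfp707 and Zfp869, 16 named transcripts had a zinc finger gene symbol, 13 of them from the study's own lists, which were chosen on these same oocytes and are not independent evidence of a direction. Of the 16, 8 passed the filter on low counts, which a transcript can pass through the 9 NSN oocytes alone. By edgeR's quasi-likelihood test, 4 of the 8 were called lower in SN, 1 was called higher and 3 were not called. All 4 called lower came from the study's lists, so their values are given as descriptions without a p, as for Zfp707 and Zfp869. The median log2 fold change of the 8 was -1.13, beside 0.01 over all transcripts tested, and 13.5% of all transcripts were called in either direction.

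Zfp622, known as a pre-ribosome maturation factor rather than a DNA-binding repressor, was the lowest of these in SN. It had 5 to 33 counts per NSN oocyte and 0 to 4 per SN oocyte, without overlap, and a log2 fold change of -3.76 (SE 0.502). Zfp64, a C2H2 zinc finger transcription factor, averaged 19.7 ± 7.81 CPM (SD, n = 9) in NSN oocytes, against 8.58 ± 3.90 CPM (SD, n = 16) in the SN group, a log2 fold change of -1.13 (SE 0.236). In mouse C alone it was -0.52 and in mouse D alone -1.83. Zfp771 (-2.17) and Zfp119a (-1.52) were lower as well, from low levels, with Zfp119a at -2.39 in mouse C and -0.80 in mouse D. Among these 4 genes, Zfp64 was the only one with a mean above 10 CPM in NSN oocytes. With DESeq2, or without the filter, 9 zinc finger transcripts were called lower, beside 4 of the 8 that passed the filter. Those fits also took in named transcripts that had not passed it, among them 6 from the study's lists. Over all transcripts, in either direction, DESeq2 called 2556 and the fit without the filter 2705, beside 2244. The share of all transcripts called lower in those fits was not counted, so nothing is read from the 9.

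Zfp750, a regulator of epidermal differentiation, was the gene called higher, from 130.3 CPM in NSN to 169.3 CPM in SN oocytes (log2 fold change 0.42, SE 0.132, edgeR adjusted p 0.0305). Its locus overlaps that of Tbcd on the opposite strand, and strand use in counting is not stated. Overlap of their exons was not checked, so whether reads of Tbcd add to the Zfp750 counts is not known. With scaling by library size only, Zfp750 was not called. Zfp808 (-1.12), Zfp335 (-1.05) and Zfp384 (-0.64) were not called. Annotated genes overlap their loci too, on the opposite strand for Zfp335 and Zfp384 and on the same strand for Zfp808. The other 8, Zfp105, Zfp42, Zfp637, Zfp689, Zfp712, Zfp954, Zfp988 and Zscan4b, did not pass the filter on low counts and were not part of this fit. Of these, Zfp954 had a median of 11 counts per NSN oocyte and 0 per SN oocyte.

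**Figure D5:**
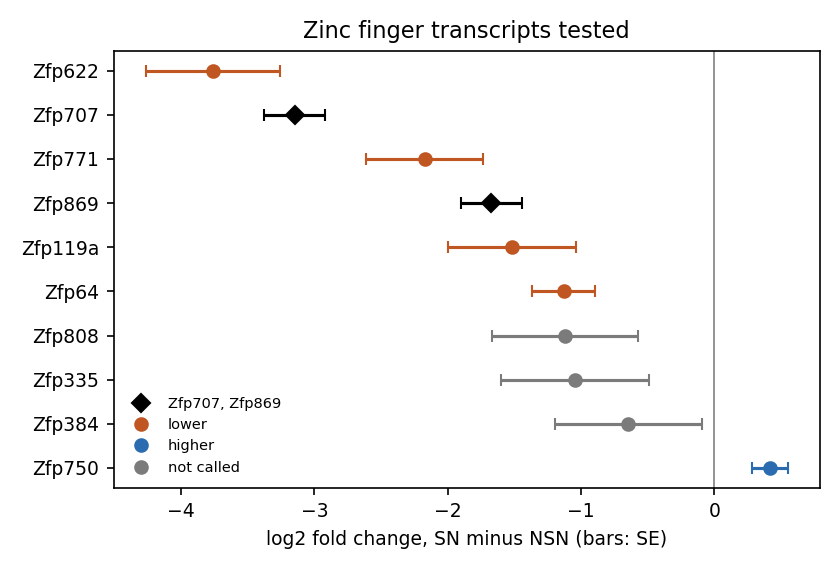
Log2 fold change, SN minus NSN, with bars of 1 SE, for Zfp707, Zfp869 and the 8 other named zinc finger transcripts that were tested, ordered by size. Zfp622 (-3.76) and Zfp707 (-3.15) lie lowest, and Zfp750 (0.42) is the only one above 0.

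Genes that work with KRAB zinc finger proteins, such as Trim28 and Setdb1, were looked for as well, but 0 of 21 had a named transcript, so their levels are not analysed here. Of 13 genes of RNA decay, 1 was named, Cnot6l, a deadenylase of the CCR4-NOT complex, which averaged 192 CPM in NSN oocytes and 263.7 CPM in SN oocytes (log2 fold change 0.50). Its name also came from the study's lists, so this difference is a description.

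The cells carried the oocyte markers that had names, 3 of 12. Zp3, a protein of the zona pellucida, had 4488 to 14224 counts per NSN oocyte and 2372 to 14005 per SN oocyte, with means of 3797 and 2420 CPM. Oosp1 and Oosp3, proteins that oocytes secrete, went the other way, with means of 534.2 and 893.5 CPM for Oosp1 and of 510.7 and 894.5 CPM for Oosp3. All 3 were named through the study's lists. Their summed level ranged from 3646 to 5666 CPM in NSN, from 3258 to 5073 CPM in SN, and was 4141 CPM in the intermediate oocyte. Of 12 markers of granulosa and cumulus cells, which surround the oocyte, 2 were named, Amh and Hsd3b1, both through the study's list of transcripts missing from SN oocytes. Their summed level was 0.372 to 14.1 CPM in NSN (median 5.27), 0 to 16.3 CPM in SN (median 0.572) and 4.16 CPM in the intermediate oocyte, so it was higher in NSN oocytes at the median. In the 7 SN oocytes where both were at 0, Zfp707 was 0.931 to 4.75 CPM and Zfp869 3.72 to 15.1 CPM. Among NSN oocytes, D-34 had the least of these markers (0.372 CPM) and C-8 the most (14.1 CPM). By rising marker level the order was D-34, D-30, C-6, D-14, C-3, D-11, C-7, C-12 and C-8. In that order Zfp707 was 47.9, 32.2, 25.9, 30.7, 30.9, 20.1, 13.7, 18.5 and 37.7 CPM. Zfp869 was 22.3, 42.6, 42.5, 18.5, 34.4, 40.8, 39.6, 29.8 and 18.8 CPM. The part of these cells in the results was not tested.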

How the data were processed

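The authors deposited raw counts per transcript for 26 oocytes. Their reads were trimmed (TrimGalore), mapped to GRCm38 (HISAT2 2.1.0) and assigned with SeqMonk to the transcripts of an oocyte transcriptome that had been published before. Strand use in counting is not stated in the sources used here. Their deposited table of stage comparisons holds fold changes and p-values and was not used, and 0 sample columns were left unused. Each oocyte took its stage and mouse from its label.

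From the counts, CPM used the library total. Transcripts that reached 3 counts in 9 or more oocytes were fitted with edgeR 4.0.16 (TMM, quasi-likelihood test, R 4.3.3) over 9 NSN and 16 SN oocytes. P-values were adjusted by Benjamini-Hochberg, and 0.05 was the threshold. Stage was the only term, with mouse added for the mouse and interaction tests. The intermediate oocyte was not fitted. Log2 CPM used a prior count of 2. DESeq2 1.42.0, other scalings, no filter, each mouse alone, downsampling and leaving out each oocyte were alternatives. The methods were tested on simulated data. P-values measure the spread between oocytes of 2 mice.

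Zfp707, Zfp869 and the gene lists were chosen with earlier results of these data known. Besides them, the text names every zinc finger transcript with a symbol, the 5 transcripts most like each gene over all oocytes and the 3 most like within stages, and named members of lists of KRAB partners, RNA decay genes and cell markers. Names came from the study's lists for 366 transcripts and from Ensembl identifiers for 145. Sequences came from GENCODE M21 transcripts.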

Additional observations from a re-analysis of the deposited data

Results flagged for a closer look

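The intermediate oocyte took part in no comparison between stages, and its counts were above the limit that a count of 0 allows. It held 7 counts of Zfp707 and 60 counts of Zfp869, so both were detected there. There was 1 such oocyte, so these values have no test.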

How the results depend on the processing

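The log2 stage differences kept their direction under the alternatives run, from -3.30 (downsampled) to -3.02 (without oocyte D-34) for Zfp707 and from -1.81 (mouse D only) to -1.60 (mouse C only) for Zfp869. These fits used oocytes on which the genes were chosen, so the kept direction is a description and no independent support. Neither gene was called for the mouse or the interaction in any fit that gave an adjusted p, and DESeq2 gave none for Zfp707 between the mice. With each oocyte left out in turn, the smallest edgeR adjusted p was 0.609 for Zfp707 and 0.623 for Zfp869 between the mice, and 0.938 and 0.931 for the interaction. The interaction of Zfp707 ran from -0.36 to 0.11 in those fits and so changed sign.

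The count of transcripts called between stages, 2244, was 750 with mouse C only and 725 with mouse D only, where fewer oocytes were fitted. The 6 calls between the mice became 0 with library size only, 53 without a filter and 165 with DESeq2, and ranged from 0 to 22 with 1 oocyte left out. The zinc finger genes called lower numbered 9 of the 16 named with DESeq2 and 9 without a filter, instead of 4. Of the 16, 13 came from the study's lists. Over all transcripts, in either direction, those fits called 2556 and 2705, and the share called lower was not counted. Both of those fits took in transcripts that had not passed the filter. Zinc finger genes called higher numbered 0 with library size only, instead of 1. The cause of these changes was not tested. Single oocytes of the stages could not be paired, since the stages share no replicate numbers. The main stage fit had no term for the mouse, although both mice gave oocytes of both stages. With mouse as a term, the log2 stage difference was -3.14 for Zfp707 (SE 0.226) and -1.68 for Zfp869 (SE 0.225). That fit called 2254 transcripts. Depth limits Zfp707 in SN oocytes, at 2 to 17 counts.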
